A study of Homo sapiens with 4 samples.

Results

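The genes described here belong to the p53 network: the p53 relatives TP63 and TP73, the p53 inhibitors MDM2 and MDM4, the p53-responsive genes TP53I3 and SFN, and the growth arrest genes GADD45A, GADD45B and GADD45G. They were chosen by name, and their probe sets were found through the annotation by symbol, gene identifier or alias. These genes and the gene lists below were chosen with earlier results of these data known, so they are no unbiased sample of all genes. Of the 9 genes, 8 were measured, by 34 of the 44988 probe sets that stand for 1 gene, among 18132 genes in all. TP63 was not analysed here.

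The arrays measured the RNA of UM1, an established human line of tongue squamous cell carcinoma (TSCC). After 7 days in 16.7 mM glucose (high glucose, 2 arrays) or in 5.6 mM glucose (normal glucose, 2 arrays, called low glucose in the labels), total RNA was hybridised to Affymetrix arrays, and the question was which genes differ between the glucose levels. All cultures were the same unmodified line in DMEM with foetal bovine serum, and the labels number the arrays as biological replicates without saying how the cultures were separated, so the p-values measure the spread between these arrays, which may be technical. A level is a log2 value per probe set after Robust Multi-array Analysis (RMA), so a difference of 1 is a 2-fold change, and levels of different genes cannot be compared. Each gene is given by its brightest probe set unless stated otherwise, and differences are high minus normal glucose from limma, called at a Benjamini-Hochberg adjusted p under 0.05 over all 18132 genes.

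p53 is a transcription factor that is switched on by DNA damage and other stress and that arrests the cell cycle or starts cell death. MDM2 is a ubiquitin ligase that marks p53 for destruction, and MDM4, its relative, binds p53 and blocks its activity. p63 sustains the basal layer of squamous epithelium, and p73 acts beside them in development and in the response to damage. The GADD45 proteins are small stress-induced proteins that bind the mitotic kinase CDK1 with cyclin B, the replication clamp PCNA and the kinase MAP3K4. SFN encodes 14-3-3 sigma, an epithelial protein that holds the CDK1 complex in the cytoplasm, and its loss is common in carcinomas.

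Over all probe sets (no independent replicates), r was 0.996 between the high glucose arrays, 0.997 between the normal glucose arrays and 0.946 to 0.947 across the groups. The 3′ minus 5′ difference of the beta-actin control was 0.349 and 0.417 in high glucose, against 0.713 and 0.740 in normal glucose. For the GAPDH control the gap was smaller, at 0.08 and 0.123 in high glucose, against 0.24 and 0.135 in normal glucose. Of 10 measured genes listed as squamous markers, 9 were higher and 1 was lower in high glucose. The lower gene was EPCAM, which is not particular to squamous cells. The summed linear level of the 10 was 42910 and 43353 in high glucose, against 8764 and 8988 in normal glucose. Of 14 fibroblast markers, 5 were higher, 0 lower and 9 not called. Their sums were 13395 and 13420 in high glucose, against 389 and 356 in normal glucose, led by COL3A1 and FAP. Such sums mostly reflect the brightest probe sets. COL3A1 alone was at 13.46 and 13.45 in high glucose, against 6.44 and 6.41 in normal glucose. The fibroblast markers PDGFRA, LUM, THY1, TCF21, POSTN and MFAP5 did not exceed the 25th percentile on any array, and of 7 leukocyte and endothelial markers 0 were called in limma, also at an unadjusted p under 0.05. The part of these shifts in the results was not tested. In RNA from whole cultures, fewer cells that express a gene and less RNA per cell cannot be told apart.

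Of the 8 measured genes, 4 rose (SFN, TP53I3, GADD45B and TP73) and 3 fell (MDM4, MDM2 and GADD45A) in high glucose, and GADD45G was not called. Among all genes tested, 15.5% were called higher and 22.2% lower. When the limma fit was read with the methods' thresholds (over 1.5-fold or under 0.67-fold, unadjusted p under 0.05), the counts were also 4 higher and 3 lower, against 10.6% and 13.4% of all genes. Changes were thus common across the array. The called share of these 8 genes was above that of all genes in both directions. They are few and were chosen with earlier results known, so no conclusion is drawn from that share. An exact two-sided permutation test of 2 against 2 arrays cannot go below p = 0.333, so every call depends on the spread that limma pools over genes.

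**Figure D1:**
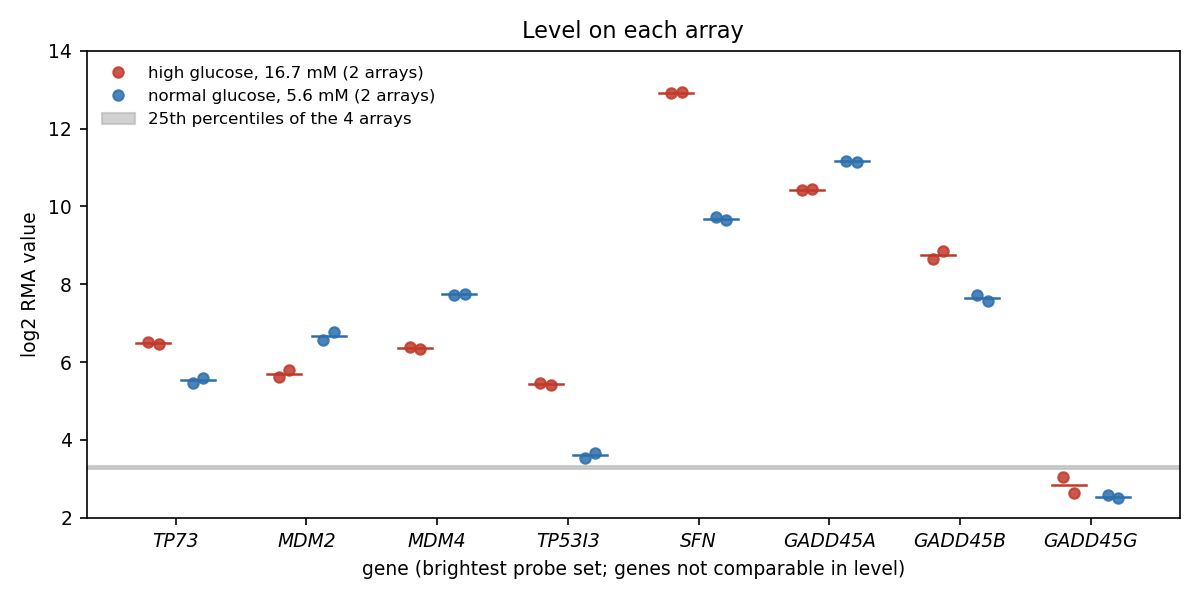
The log2 RMA level of each gene (y axis) on the 2 high glucose arrays (red, left) and the 2 normal glucose arrays (blue, right), with the group mean as a bar and the 25th percentiles of the arrays as a grey band. SFN, at 12.91 and 12.93 in high glucose, stands above its normal glucose arrays by the widest gap, MDM2, MDM4 and GADD45A are lower in high glucose, and GADD45G lies under the grey band on all 4 arrays.

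Among the p53 inhibitors, both fell in high glucose. MDM4 had a level of 6.38 and 6.33 in high glucose, against 7.73 and 7.76 in normal glucose. The groups lay far apart relative to the gap between duplicates, and the difference was -1.39 (SE 0.084, limma adjusted p = 0.000103), or 0.382-fold. Only 2.60% of all genes, 472 of 18132, had a more negative difference. Of its 6 probe sets, 5 were called lower in the fit over all 49293 probe sets, with differences between -1.58 and -1.33, and the other (11762979_at) was at 4.08 and 4.16 in high glucose, against 4.30 and 4.20 in normal glucose (difference -0.13, limma adjusted p = 0.366). In that fit 20.4% of all probe sets were called lower and 15.1% higher.

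MDM2 was measured at 5.62 and 5.79 in high glucose, against 6.57 and 6.78 in normal glucose. Here too the groups did not overlap, with a difference of -0.97 (SE 0.115, limma adjusted p = 0.00134), or 0.511-fold, and 5.78% of all genes had a more negative difference. Of its 11 probe sets, 9 were called lower, with differences between -1.14 and -0.47, and the other 2 (11731564_x_at and 11753819_a_at) were at -0.23 and -0.20. Of these 9, 5 were still called without high glucose replicate 2 and 5 without normal glucose replicate 2, against 6 when high glucose replicate 1 or normal glucose replicate 1 was left out. Of the 9 called with all arrays, only 11731566_a_at, 11731567_a_at and 11753688_a_at lack the suffix _x_at. That suffix marks a probe set that can also bind other transcripts. The dimmest called probe set of MDM2, 11753688_a_at, stayed under the 25th percentile on all 4 arrays, so its difference of -0.47 gives no fold. Another, 11753689_x_at, did not exceed that percentile on the high glucose arrays. The methods' t-test on the brightest probe set gave MDM2 an unadjusted p of 0.019. The methods name no adjustment, and with Benjamini-Hochberg adjustment over all genes the t-test gave an adjusted p of 0.0765.

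MDM2 is transcribed from a first start and from an internal start within the gene, and the internal one is known as the start that p53 activates. Both are shown because the MDM2 probe sets are annotated to the gene and not to a start, so the arrays did not tell their transcripts apart. The windows run from 250 bases before to 50 after the start, on the plus strand of GRCh38.p14 (RefSeq), and capitals mark a p53 element.
MDM2 first start, chr12:68807922-68808221: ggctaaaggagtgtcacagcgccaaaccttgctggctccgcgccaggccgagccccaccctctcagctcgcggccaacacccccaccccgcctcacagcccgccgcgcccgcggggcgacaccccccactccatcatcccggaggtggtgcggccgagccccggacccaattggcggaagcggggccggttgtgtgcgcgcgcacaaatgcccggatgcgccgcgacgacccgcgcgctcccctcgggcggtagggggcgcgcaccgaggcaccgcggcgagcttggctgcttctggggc
MDM2 internal start, chr12:68808767-68809066: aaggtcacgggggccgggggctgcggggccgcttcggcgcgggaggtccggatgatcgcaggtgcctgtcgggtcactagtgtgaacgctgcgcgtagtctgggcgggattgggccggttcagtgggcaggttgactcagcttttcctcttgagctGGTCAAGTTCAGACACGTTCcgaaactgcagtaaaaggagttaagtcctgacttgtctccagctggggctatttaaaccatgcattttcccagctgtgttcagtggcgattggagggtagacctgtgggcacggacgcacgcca
A p53 element was taken here as a pair of adjoining p53 half-sites of 10 bases each with the fixed C and G of both half-sites in place and at most 3 mismatches elsewhere, which reads the same on both strands. By this rule the internal window held 1, from base -94 to base -75 relative to the start with 2 mismatches, and the first window held 0. An element that lacks a fixed C or G is not counted, so these windows may hold more. The internal window also held 1 copy of TGACTCA, the AP-1 site, from which the p53 element was separate. Of 35116 such windows of all genes, 1.12% held a p53 element and 4.95% a TGACTCA on either strand. The allowance for mismatches was set after a search for half-sites without mismatch, found in 6.63% of all windows, gave 0 in the 13 windows of 8 genes of this group.

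TP73, the p53 relative that was analysed, was read by 9 probe sets that did not move alike. The brightest (11756355_a_at) was at 6.52 and 6.47 in high glucose, against 5.47 and 5.60 in normal glucose. These groups did not overlap, and the difference of 0.96 (SE 0.091, limma adjusted p = 0.000579) was a 1.94-fold rise. A dimmer probe set, 11736821_x_at, was at 5.81 and 5.59 in high glucose, against 3.97 and 4.52 in normal glucose, a rise of 1.46 (limma adjusted p = 0.00222 over all probe sets). Its suffix _x_at again marks a probe set that can also bind other transcripts. The other 7 probe sets were not called, with differences between 0.06 and 0.33, each of them positive. The mean of the 9 probe sets gave TP73 a difference of 0.45 (limma adjusted p = 0.00549).

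TP73 also has more than 1 start. Its first start gives full-length p73, and the internal start within the gene gives forms that lack the activation domain and can block p53 and p73. The internal window is shown because it was the other window of these genes with a p53 element, again in capitals, here on the plus strand of GRCh38.p14 (RefSeq).
TP73 internal start, chr1:3690422-3690721: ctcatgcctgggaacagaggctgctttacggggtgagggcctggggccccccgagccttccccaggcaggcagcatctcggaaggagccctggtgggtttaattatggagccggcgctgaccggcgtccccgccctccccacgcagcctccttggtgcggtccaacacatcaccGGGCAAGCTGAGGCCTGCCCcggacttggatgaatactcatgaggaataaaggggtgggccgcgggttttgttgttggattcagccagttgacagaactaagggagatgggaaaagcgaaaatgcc
The element ran from base -76 to base -57 relative to this start with 2 mismatches. The TP73 probe sets are annotated to the gene alone, so which start supplied the RNA was not measured. The windows of MDM4, TP53I3, SFN, GADD45B, GADD45G and TP63 and the other TP73 windows held 0 elements, which says only that these letters are not in those windows. GADD45A was not searched.

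**Figure D2:**
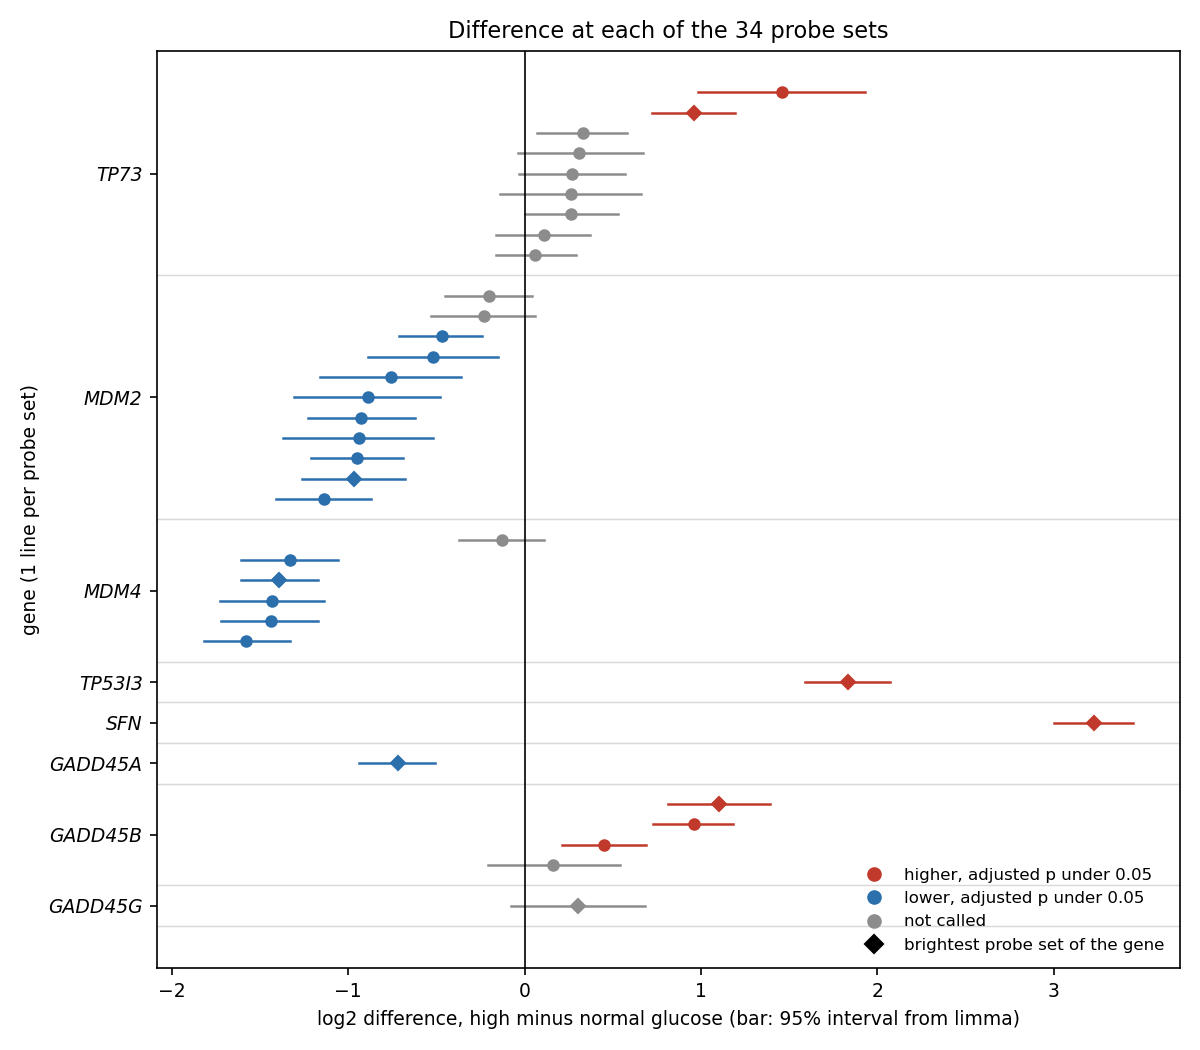
Log2 difference of high minus normal glucose (x axis) at each of the 34 probe sets, 1 line per probe set grouped by gene, with bars for the 95% interval from limma. The 11 MDM2 and 6 MDM4 probe sets all lie on the negative side, those of TP73 and GADD45B on the positive side, and diamonds mark the brightest probe set of each gene.

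SFN and TP53I3, which p53 can activate, rose, whereas MDM2 and GADD45A, which it can activate too, fell. SFN was at 12.91 and 12.93 in high glucose, against 9.73 and 9.65 in normal glucose. That was a difference of 3.23 (SE 0.086, limma adjusted p = 7.96e-06), a 9.37-fold rise and the widest of the 8 genes. Only 155 of all 18132 genes, 0.855%, had a larger positive difference. SFN was read by 1 probe set.

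TP53I3 encodes a quinone oxidoreductase tied to reactive oxygen species in p53-driven cell death. It was at 5.47 and 5.41 in high glucose, against 3.55 and 3.67 in normal glucose, where it lay close above the 25th percentiles of those arrays (3.26 and 3.31). The groups were apart, with a difference of 1.83 (SE 0.0921, limma adjusted p = 5.26e-05), or 3.56-fold, and 2.77% of all genes had a larger positive difference. TP53I3, too, was read by 1 probe set, so no other probe set could be set beside it.

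The GADD45 genes differed from each other in direction. GADD45A, the member best known as a p53 target, was at 10.43 and 10.44 in high glucose, against 11.17 and 11.14 in normal glucose. The duplicates were nearly identical and the groups apart, and the difference was -0.72 (SE 0.0826, limma adjusted p = 0.00116), or 0.606-fold. More negative differences were found in 9.79% of all genes.

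GADD45B, which is induced by TGF-beta and NF-kappaB signalling, was at 8.64 and 8.85 in high glucose, against 7.72 and 7.57 in normal glucose. The gap between the groups exceeded that between duplicates, with a rise of 1.10 (SE 0.113, limma adjusted p = 0.00078), or 2.15-fold. Of the other 3 probe sets, 11757865_a_at rose by 0.96 and 11763624_x_at by 0.45, and 11764031_at, at 4.55 and 4.34 in high glucose, against 4.10 and 4.47 in normal glucose, overlapped between the groups. Leaving out any 1 of the 4 arrays ended the call of 11763624_x_at. The methods' t-test gave GADD45B an unadjusted p of 0.0141, which the Benjamini-Hochberg adjustment added here raised to 0.065.

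GADD45G was at 3.06 and 2.63 in high glucose, against 2.59 and 2.50 in normal glucose, under the 25th percentile on all 4 arrays, so no fold is given. Its difference of 0.30 had a 95% interval from -0.08 to 0.68 (limma adjusted p = 0.194). Of the alternatives run, it was called only without high glucose replicate 2 (difference 0.52, limma adjusted p = 0.0416), and without high glucose replicate 1 the difference was 0.08.

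**Figure D3:**
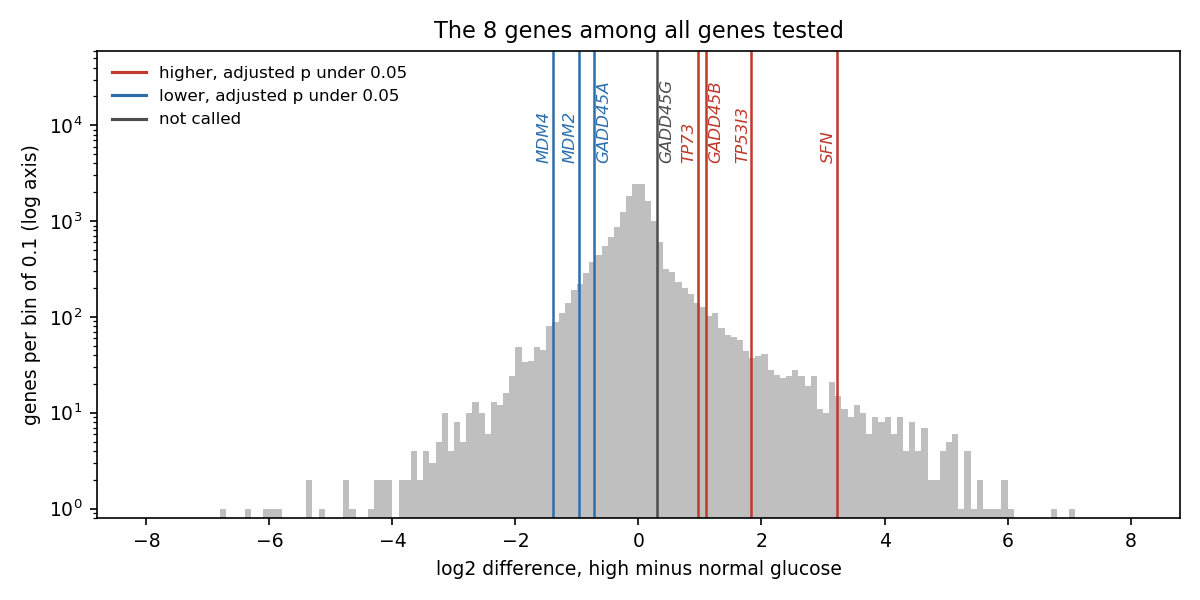
Histogram of the log2 difference of high minus normal glucose for all 18132 genes (x axis, bins of 0.1, number of genes on a log axis), with the 8 genes as vertical lines. SFN lies in the right tail with 155 genes beyond it, MDM4 has 472 genes beyond it on the left, and GADD45G lies in the bulk.

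Other p53 target genes moved in both directions. Of 34 measured targets outside the 8 genes, 11 were higher, 15 were lower and 8 were not called. That was 32.4% higher and 44.1% lower, against 15.5% and 22.2% of all genes. The median difference was -0.17, against -0.03 over all genes. TRIM22, an antiviral ubiquitin ligase, was at 10.44 and 10.43 in high glucose, against 6.73 and 6.72 in normal glucose. DDB2, a sensor of ultraviolet damage, was at 6.95 and 7.06 in high glucose, against 4.70 and 4.51 in normal glucose. These were rises of 3.71 and 2.40 (limma adjusted p = 5.56e-06 and 3.31e-05). The death receptor gene TNFRSF10B fell, at 8.14 and 7.88 in high glucose, against 10.45 and 10.40 in normal glucose, and GDF15, a stress cytokine, had the most negative difference of the list (-6.72). Many of these genes also answer to other regulators. CDKN1A, the cell cycle inhibitor most often used as a p53 readout, was outside the list and added after its values were seen. It was at 10.53 and 10.36 in high glucose, against 11.50 and 11.47 in normal glucose, a fall to 0.488-fold (limma adjusted p = 0.000559).

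Regulators and partners of p53 and MDM2 were called lower more often than higher, as were all genes tested. Of 29 measured, 3 were higher, 15 were lower and 11 were not called, with a median of -0.40. That was 10.3% higher and 51.7% lower, against 15.5% and 22.2% of all genes. SIRT1, a deacetylase of p53, and NQO1, which protects p53 from degradation, fell to 0.314-fold and 0.409-fold. The ribosomal protein genes RPL5, RPL11 and RPL23, whose products can bind and inhibit MDM2, fell by 0.53, 0.60 and 0.58, and RPL26, whose product acts on p53 messenger RNA, by 1.03. PPP1R13L, an inhibitor of p53, was among the 3 higher genes at 9.10 and 9.15 in high glucose, against 7.92 and 7.87 in normal glucose (2.35-fold, limma adjusted p = 0.000172). The other 2 higher genes were AKT1 and DAXX, at 1.24-fold and 1.23-fold. With any 1 of the 4 arrays left out, 1 gene of the list was called higher.

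DNA damage checkpoint genes were split as well. Of 18, 7 were higher (38.9%, against 15.5% of all genes) and 5 lower (27.8%, against 22.2%), with a median of 0.08. The checkpoint kinase CHEK1, read by an _x_at probe set, was at 7.47 and 7.11 in high glucose, against 4.09 and 5.19 in normal glucose. Its rise was 6.29-fold, with the normal glucose duplicates far apart. WEE1, also a checkpoint kinase, rose 3.91-fold. CLSPN, which CHEK1 needs, rose at least 2.49-fold against the 25th percentile of the normal glucose arrays. RAD50, a sensor of broken ends, fell to 0.485-fold. These counts rest on all 4 arrays: without high glucose replicate 1, high glucose replicate 2 or normal glucose replicate 1, 4, 4 and 3 genes were called higher, and without high glucose replicate 2, normal glucose replicate 1 or normal glucose replicate 2, 2 were called lower. The methods' t-test with Benjamini-Hochberg adjustment called 1 higher and 1 lower.

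**Figure D4:**
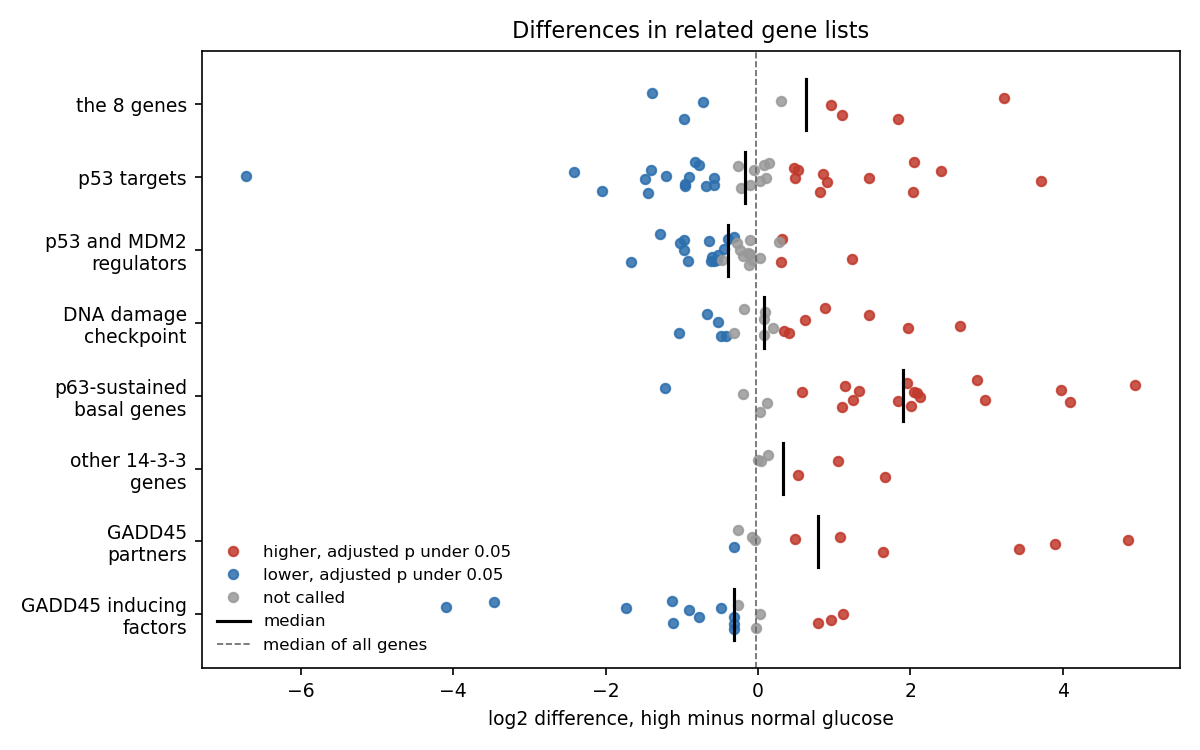
Log2 difference of high minus normal glucose (x axis) of each measured gene, 1 row per list, with the 8 genes in the top row, the list medians as black bars and the median of all genes (-0.03) as a dashed line. The basal genes that p63 sustains lie mostly to the right, with a median of 1.90, whereas p53 targets fall on both sides.

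Since TP63 was not analysed, genes of basal keratinocytes that p63 is known to sustain were counted. Of 20 measured, 3 were not called and 1 (LAMB3) was lower (5%, against 22.2% of all genes). The other 16 were higher (80%, against 15.5%), with a median of 1.90 over the list. Keratins of the basal layer were among them, with rises of 4.95 (KRT15), 4.09 (KRT14) and 3.97 (KRT5), and the desmosomal cadherin DSC3 was at 9.29 and 9.24 in high glucose, against 6.19 and 6.38 in normal glucose. The list shares 5 genes with the squamous markers given above, so it is no separate evidence, and it does not measure TP63 itself. PERP, which was higher, is also in the list of p53 targets and is counted in both.

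The other genes of the 14-3-3 family did not all follow SFN. Of 6, 3 were higher and 0 were lower in limma, none of the other 3 having an unadjusted p under 0.05. Among all genes, 15.5% were called higher and 22.2% lower. YWHAQ was at 10.45 and 10.68 in high glucose, against 8.92 and 8.89 in normal glucose, YWHAH rose 2.07-fold and YWHAZ 1.44-fold. YWHAB, at 11.86 and 11.87 in high glucose, against 11.87 and 11.86 in normal glucose, had nearly the same level in each group.

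Genes listed as partners of GADD45 proteins, not all of them known to bind these, mostly rose. Of 10 measured, 6 were higher (60%, against 15.5% of all genes) and 1, MAP2K4, was lower (10%, against 22.2%). By the methods' thresholds 0 were lower. The higher genes TET1 and MAP2K6 did not exceed the 25th percentile on the normal glucose arrays. With that percentile as a floor, 5 genes were higher. The median was 0.78. CDK1 was at 9.90 and 9.81 in high glucose, against 4.87 and 5.12 in normal glucose. Its partner CCNB1 rose 14.9-fold. AURKA, a mitotic kinase, and PCNA rose 10.8-fold and 3.11-fold. MAP3K4, the kinase that GADD45 proteins activate, was 0.832-fold (limma adjusted p = 0.0852).

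Genes listed as factors that can induce GADD45 genes, not all of them known to do so, were mostly lower. Of 17, 3 were higher (17.6%, against 15.5% of all genes) and 11 were lower (64.7%, against 22.2%), with a median of -0.32. DDIT3, a stress-induced transcription factor, was at 7.09 and 7.23 in high glucose, against 11.29 and 11.21 in normal glucose. ATF3, another, was at 6.47 and 6.48 in high glucose, against 9.94 and 9.93 in normal glucose. CEBPB and MYC fell to 0.302-fold and 0.456-fold. The 3 higher genes were JUN, BRCA1 and NFKB1 (2.17-fold, 1.94-fold and 1.73-fold). RELA and SMAD3 were among the lower genes (0.809-fold and 0.801-fold). JUN, BRCA1, NFKB1, RELA and SMAD3 were named after their values were seen. Without high glucose replicate 1, high glucose replicate 2 or normal glucose replicate 2, 7 were called lower.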

How the data were processed

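RNA of UM1 cells was measured on 4 arrays, 2 in high glucose and 2 in normal glucose. Per probe set the authors deposited 1 log2 value, obtained with GCOS and then RMA, which corrects background and normalises between arrays (software versions: not given in the sources used here). Identifiers of the 49395 probe sets follow the PrimeView array, although the methods name another Affymetrix array, and the PrimeView annotation was used (44988 probe sets with 1 gene, 1832 with several, 2473 not listed). The 102 controls were left out.

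Symbols were updated by gene identifier, and the brightest probe set stood for a gene. The 2 groups were compared in limma 3.58.1 (R 4.3.3, lmFit and eBayes, two-sided) over 18132 genes and, separately, over 49293 probe sets, with Benjamini-Hochberg adjustment at 0.05. Levels at or under the 25th percentile of their array were treated as a floor. Lists came from textbook knowledge. Genes named from a list were up to 4 called ones with the largest difference and arrays apart, the MDM2 regulators and the 14-3-3 genes in any number, and others where marked. LAMB3, EPCAM, DAXX, AKT1, MAP2K4, MAP3K4, TET1, MAP2K6 and PERP were named for a small count, a role, a low level or an overlap of lists. Their values were known. The members and lists were chosen with earlier results of these data known. Promoter windows came from RefSeq (GRCh38.p14). The fit was tested on simulated data. Python 3.11.15 with pandas 2.3.3 and numpy 2.4.6 made the tables.

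Alternatives were other probe set summaries, _x_at probe sets left out, a filter on dim genes, the floor, further quantile normalization, median centring, limma-trend, the methods' t-test and thresholds, the replicate number as a block, and each array left out. The number of arrays limits the precision.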

Additional observations from a re-analysis of the deposited data

How the results depend on the processing

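Over the alternatives, 115 of 118 values of the 8 genes kept their direction and their side of the threshold and 0 reversed. Limma-trend, the t-test, the methods' thresholds and the replicate block keep the difference of the main fit, so the direction could not change there. For genes read by 1 probe set, the other probe set summaries also gave the same difference. The methods' t-test with Benjamini-Hochberg adjustment ended the calls of MDM2 (-0.97, adjusted p = 0.0765) and GADD45B (1.10, adjusted p = 0.065), and called 1347 genes higher and 1667 lower over the array. The methods' thresholds called 2433 genes lower. With 1 array left out, GADD45G ranged from 0.08 to 0.52 and was called without high glucose replicate 2. The TP73 difference spanned 0.45 (mean of its probe sets) to 1.46 (most variable probe set). Of 170 values of single probe sets, 19 lost and 2 gained a call, and 11764031_at of GADD45B reversed without normal glucose replicate 1 (-0.02, with a range to 0.35 over the arrays left out).

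Replicate numbers are shared between groups, but same-numbered arrays did not deviate together (correlation -0.005 over genes). With the replicate block, 2529 genes were higher and 3592 lower, and each of the 8 genes kept its call or its lack of one (SFN 3.23, GADD45G 0.30). Of 300 list counts, 34 moved by over 1.5 times, 6 of them under the methods' t-test. There, 6 p53 targets, 8 regulators, 6 genes listed as GADD45 inducing factors and 1 DNA damage checkpoint gene were lower. In the same test 1 checkpoint gene and 1 regulator were higher. The cause was not tested. Dim probe sets near the array floor, such as that of GADD45G, can understate a change.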
